A study of Mus musculus with 39 samples.

Results

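Ribosome biogenesis genes encode the proteins that make ribosomes but are, for the most part, not part of the finished ribosome. The set described here is a list of 50 gene symbols, of which 45 had an annotated probe set among the 12393 genes analysed. The other 5 (Npm3, Dkc1, Utp15, Nob1 and Nol10) were not analysed here. Where a gene had several probe sets, the one brightest on average across the 39 arrays stood for it, so that the choice of probe set used no difference between groups. For 28 members there was more than 1 probe set, and for 17 there was 1.

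Ribosomes are assembled mostly in the nucleolus, where RNA polymerase I transcribes the long precursor of the ribosomal RNAs. Small nucleolar ribonucleoproteins (snoRNPs) modify this precursor, the small subunit processome cleaves it on the 40S branch, and a separate series of factors matures the 60S branch. The pathway is known to follow cell growth, and the transcription factor Myc is known to bind and activate many of its genes. In B-cell development, early progenitors grow and divide strongly, whereas small pre-B cells leave the cell cycle to rearrange their light chain genes.

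The study measured RNA of sorted mouse bone marrow cells on Affymetrix arrays, 1 array per sample. Normal cells came from adult mice of no stated strain or age in weeks: 6 arrays of pro-B cells (B220+ CD43+ IgM- IgD-), 8 of pre-B cells (B220+ CD43- IgM- IgD-), 6 of immature B cells (B220+ CD43- IgM+ IgD-) and 3 of mature B cells (B220+ CD43- IgM+ IgD+). The 16 leukemic arrays held cells taken with the pre-B sort markers; the series title calls them MLL-AF4 lymphoblasts. For 10 of the 16 the labels name a leukemic mouse, and for 5 a mouse whose leukemia followed pIpC, which mimics double-stranded RNA. For array 116 they name pre-B cells of a Mll-AF4stop knock-in mouse and do not state leukemia. The labels used here give neither the cell type that expressed the fusion nor separate animals for the normal arrays, and the p-values therefore reflect only how these samples spread, which may be technical. In RNA of bulk samples, fewer cells of a type and less RNA per cell cannot be told apart.

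Values are log2 intensities, differences are differences of mean log2 intensity, and limma's p-values were adjusted over all 12393 genes by Benjamini-Hochberg; called means an adjusted p under 0.05. Array medians lay between 6.36 and 6.76, and the number of arrays limits the precision. The arrays fall into 2 runs of accessions, of 22 and 17 arrays, which no label calls a batch. Run 2 held all 3 mature B arrays and 4 of the 16 leukemic arrays. Some arrays carried signs of other cells. In the pro-B group the mean of 12 T and NK cell markers was 9.03 to 9.39 on arrays 2, 4 and 6 and 7.57 to 7.98 on arrays 1, 3 and 5, against at most 6.02 on any pre-B array. Leukemic array 122 had the lowest mean of 6 B-lineage markers, 7.60, against 9.41 to 10.37 on the other leukemic arrays.

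Leukemic pre-B cells were compared with normal pre-B cells to see how cells of the same sort gate differed. Of the 45 members, 39 were higher in the leukemic cells, 0 were lower and 6 were not called. That is 86.7% of the members, where 8.5% of all genes were called higher and 7.53% lower. The median difference of the members was 0.83, a 1.78-fold difference, and that of all genes was -0.01. Single members ranged from -0.07 to 1.79. The mean of the 45 members lay between 9.70 and 10.41 on the leukemic arrays and between 8.92 and 9.60 on the normal pre-B arrays, with no overlap. Within accession run 1 alone 35 members were higher and within run 2 alone 39 were, and the count was 39 without leukemic array 116 and 39 without array 122. The 3' to 5' difference of the Gapdh control probe sets, a sign of RNA quality, was 0.84 to 1.01 on leukemic and 0.91 to 1.26 on normal pre-B arrays in run 1, and 1.05 to 1.13 against 1.17 to 1.41 in run 2, where the groups did not overlap. That of the actin control probe sets was 1.18 to 1.46 on all arrays of run 1 and 0.60 to 1.12 on those of run 2. The part of RNA quality in the results was not tested.

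**Figure D1:**
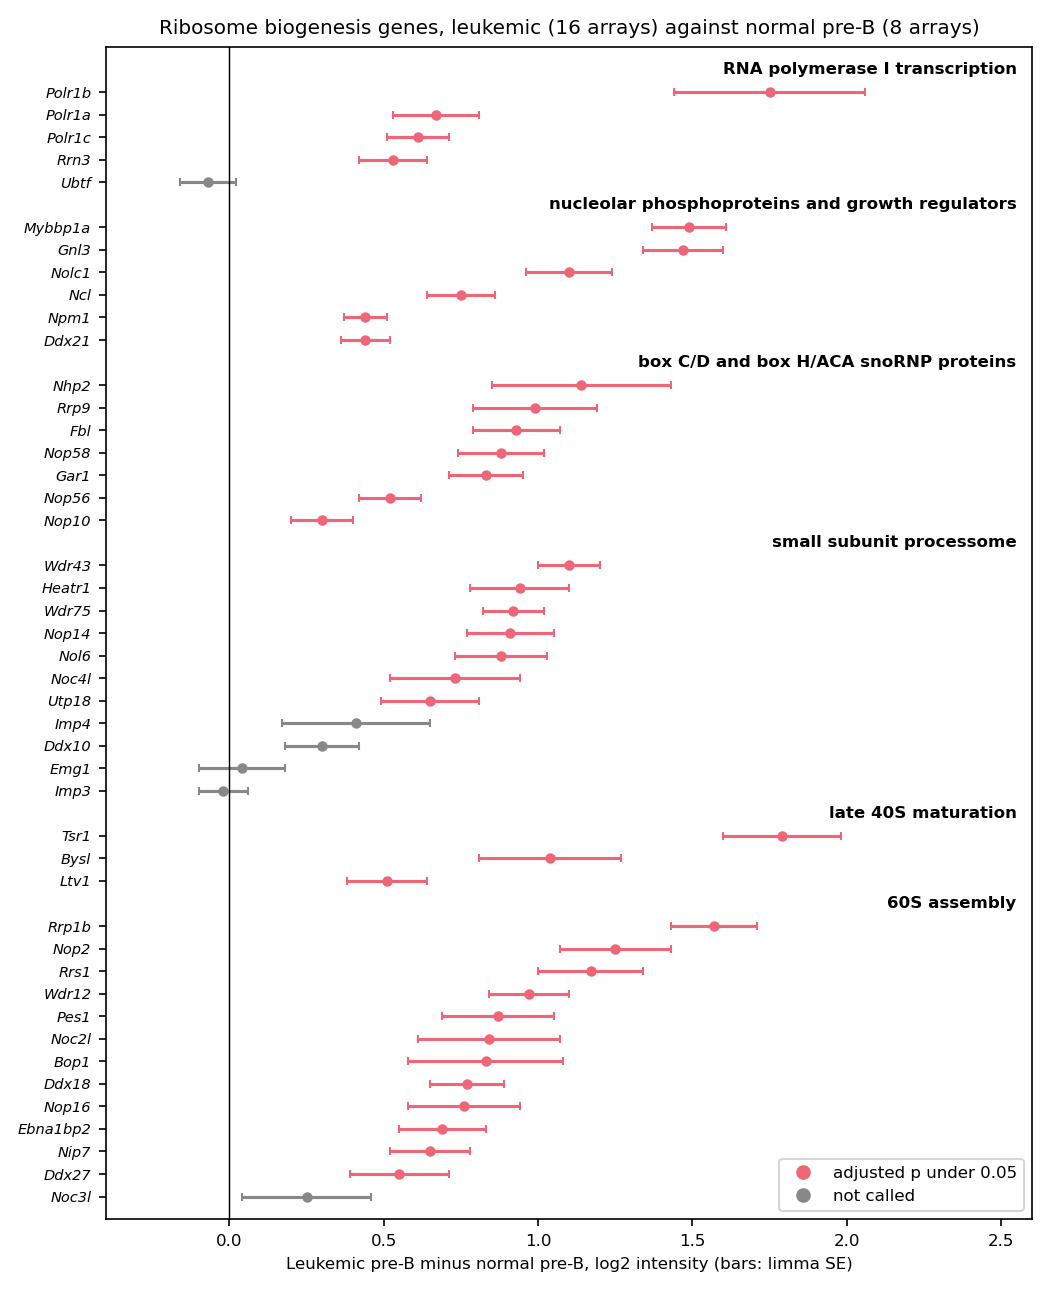
Difference of mean log2 intensity, leukemic pre-B (16 arrays) minus normal pre-B (8 arrays), for each of the 45 members grouped by role; bars are limma standard errors and red marks an adjusted p under 0.05. The differences run from -0.07 for Ubtf to 1.79 for Tsr1, and the 39 called members all lie to the right of 0.

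Transcription by RNA polymerase I was represented by 5 members, of which 4 rose, with a median difference of 0.61. Polr1b, the second largest subunit of the enzyme, was at 4.0, 4.70 and 6.32 (lowest, median and highest) on the normal pre-B arrays and at 5.57, 6.62 and 7.88 on the leukemic arrays. It was a dim and variable gene, and 10 of 16 leukemic arrays exceeded the highest normal one. Within each accession run the ranges did not overlap. They were 4.0 to 4.74 in normal pre-B against 5.57 to 6.98 in run 1, and 4.56 to 6.32 against 7.51 to 7.88 in run 2. Its difference was 1.75 (SE 0.31, limma adjusted p = 0.000245). Polr1a, the largest subunit, rose by 0.67 and Polr1c, a subunit shared with RNA polymerase III, by 0.61. Rrn3, which links the polymerase to the promoter, ran from 10.13 through a median of 10.61 to 10.84 in normal pre-B and from 10.70 through 11.06 to 11.49 in leukemic cells, a rise of 0.53 (limma adjusted p = 0.00113). Ubtf, the factor that holds active ribosomal DNA open, was not called. It ran from 11.56 through 11.92 to 12.05 in normal pre-B and from 11.26 through 11.78 to 12.10 in leukemic cells, so that the leukemic range enclosed the normal one (difference -0.07, limma adjusted p = 0.693).

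All 6 nucleolar phosphoproteins and growth regulators rose, with a median difference of 0.92. Mybbp1a, a nucleolar Myb-binding protein, was at 9.50, 9.85 and 10.45 in normal pre-B and at 11.02, 11.33 and 11.93 in leukemic cells. All leukemic values exceeded all normal ones, with a gap of 0.58 between the ranges, and the difference was 1.49 (SE 0.12, limma adjusted p = 2.45e-09). Gnl3, the GTP-binding protein nucleostemin, went from 9.61, 9.99 and 10.36 to 10.59, 11.50 and 12.12, again without overlap (difference 1.47, limma adjusted p = 1.59e-08). Nolc1, a chaperone of snoRNPs, rose by 1.10, from 9.61 ± 0.28 (SD, n = 8) to 10.71 ± 0.33 (SD, n = 16). Ncl, or nucleolin, which binds the precursor RNA, rose by 0.75, from 11.01 ± 0.30 (SD, n = 8) to 11.76 ± 0.24 (SD, n = 16). Npm1, or nucleophosmin, which shuttles between nucleolus and cytoplasm, was at 12.33, 12.40 and 12.58 in normal pre-B and at 12.42, 12.92 and 13.12 in leukemic cells. Its rise of 0.44 was small, but 14 of 16 leukemic arrays exceeded the highest normal one (SE 0.07, limma adjusted p = 5.51e-05). The helicase Ddx21 also rose by 0.44.

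All 7 snoRNP proteins rose, with a median of 0.88. Fbl, or fibrillarin, the methyltransferase of box C/D snoRNPs, was at 10.22, 10.77 and 11.25 in normal pre-B and at 11.05, 11.58 and 12.11 in leukemic cells (difference 0.93, limma adjusted p = 2.84e-05). The box C/D core proteins Nop58 and Nop56 rose by 0.88 and 0.52. Nop56 overlapped most of these 3, with 12 of 16 leukemic arrays above the highest normal one. Among the proteins of box H/ACA snoRNPs, which guide pseudouridine formation, Nhp2 rose by 1.14, Gar1 by 0.83 and Nop10 by 0.30. Nhp2 was the least even of these, from 8.40 to 10.93 on the leukemic arrays, and Nop10 passed the threshold narrowly (limma adjusted p = 0.0325). Rrp9, which binds the U3 snoRNA, rose by 0.99.

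The 40S branch was less even. Of 11 members of the small subunit processome 7 rose and 4 were not called, with a median of 0.73. Wdr43 went from 10.49 ± 0.23 (SD, n = 8) to 11.59 ± 0.22 (SD, n = 16), a rise of 1.10 with no overlap between the groups (limma adjusted p = 1.47e-08). Wdr75, another WD-repeat protein of the processome, rose by 0.92, also without overlap. Heatr1 rose by 0.94, Nop14 by 0.91, Nol6 by 0.88, Noc4l by 0.73 and Utp18 by 0.65. The 4 that were not called were Imp4 (0.41, limma adjusted p = 0.288), the helicase Ddx10 (0.30, 0.0851), the methyltransferase Emg1 (0.04, 0.92) and Imp3 (-0.02, 0.919). Imp3 and Imp4 belong to the U3 snoRNP. Imp3 ran from 10.35 to 10.67 in normal pre-B and from 10.14 to 10.85 in leukemic cells, with 4 leukemic arrays above and 4 below the whole normal range.

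The 3 members of late 40S maturation all rose. Tsr1, a factor of the cytoplasmic 40S precursor, showed the largest difference of the 45 members. It was at 6.65, 7.63 and 8.32 in normal pre-B and at 8.81, 9.28 and 9.88 in leukemic cells. Its ranges did not overlap, and it was 3.45-fold higher (difference 1.79, SE 0.19, limma adjusted p = 2.31e-07). Bysl, or bystin, rose by 1.04 and Ltv1, which helps export the 40S precursor, by 0.51.

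On the 60S branch 12 of 13 members rose, with a median of 0.83. Rrp1b was at 8.32, 9.05 and 9.53 in normal pre-B and at 9.97, 10.57 and 11 in leukemic cells, without overlap (difference 1.57, limma adjusted p = 1.59e-08). Nop2, a methyltransferase of the large ribosomal RNA, rose by 1.25 without overlap, though by a gap of 0.06. Rrs1 rose by 1.17. The 3 proteins of the PeBoW complex, which is needed to process the large subunit RNA, all rose: Wdr12 by 0.97, Pes1 by 0.87 and Bop1 by 0.83. Pes1 went from 8.14, 8.67 and 9.08 to 8.90, 9.39 and 10.19. Bop1 was the most spread of the complex, at 7.16, 8.13 and 8.81 against 7.96, 8.81 and 9.92, and 8 of 16 leukemic arrays exceeded the highest normal one (limma adjusted p = 0.0239). Its ranges overlapped only across the accession runs. They were 7.16 to 7.92 in normal pre-B against 7.96 to 9.21 in run 1, and 8.34 to 8.81 against 9.58 to 9.92 in run 2. The others that rose were Noc2l (0.84), the helicases Ddx18 (0.77) and Ddx27 (0.55), Nop16 (0.76), Ebna1bp2 (0.69) and Nip7 (0.65). Noc3l was not called, at 6.77 to 8.80 on the leukemic arrays against 6.97 to 8.14 (difference 0.25, limma adjusted p = 0.488).

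**Figure D2:**
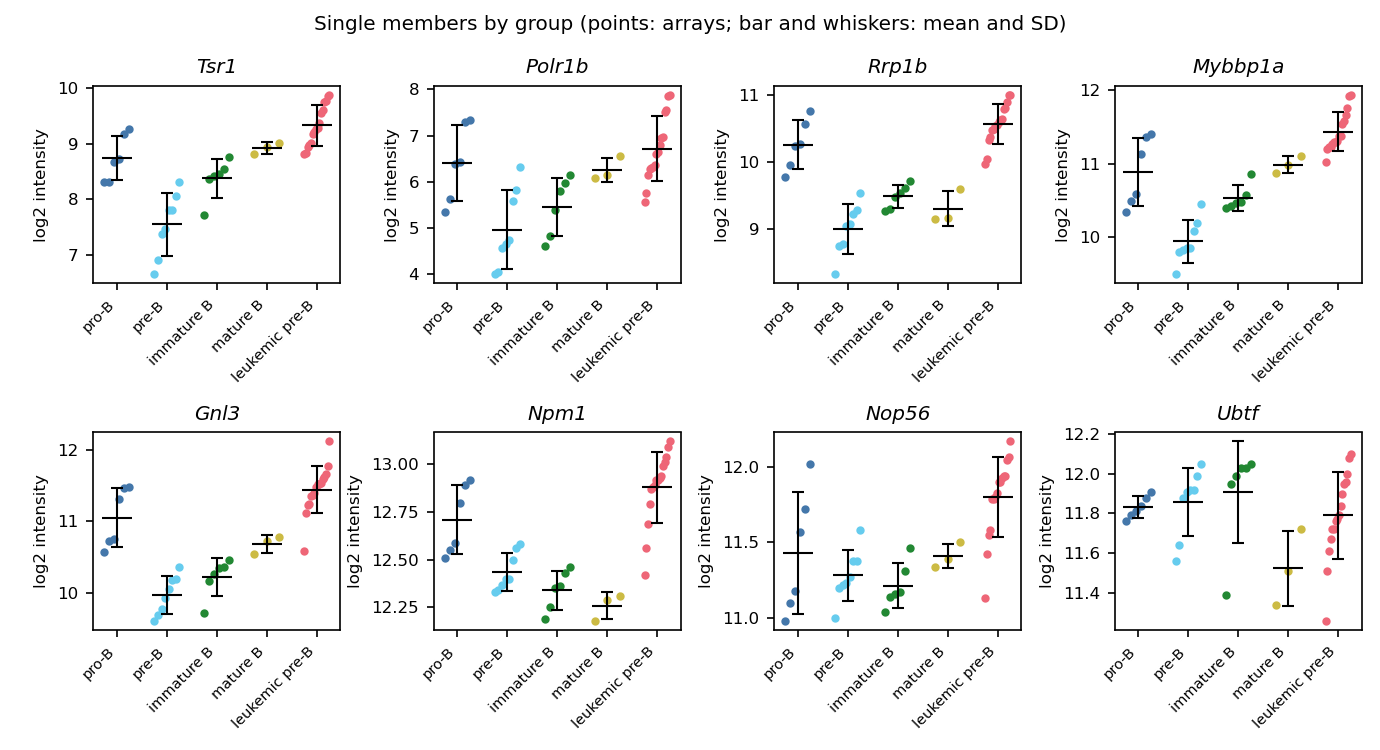
Log2 intensity of 8 members on each array by group; points are arrays, and bars and whiskers are the group mean and SD. Tsr1, Rrp1b, Mybbp1a and Gnl3 have no overlap between leukemic and normal pre-B arrays, while the leukemic values of Ubtf (11.26 to 12.10) enclose the normal pre-B values (11.56 to 12.05).

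In all, 7 of 45 members (Tsr1, Rrp1b, Mybbp1a, Gnl3, Nop2, Wdr43 and Wdr75) were higher on each of the 16 leukemic arrays than on any of the 8 normal pre-B arrays, where 0.75% of all genes were. In this comparison the 35 other probe sets of the 28 members that had them all gave a difference of the same sign as the chosen probe set, with a median of 0.79. They were not equal in size: the second probe set of Ebna1bp2, a dim one at a mean of 2.57, differed by 0.05.

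Other genes of the pathway were read from lists that were not restricted to these members. Of 64 measured further ribosome biogenesis factors 33 rose and 0 fell, with a median of 0.42. Mdn1, the giant ATPase of 60S maturation, rose by 1.79, Rrp12, an export factor, by 1.76 and Utp4, of the small subunit processome, by 1.48, while Tbl3 (0.68, limma adjusted p = 0.163) was not called. Of 12 measured genes of the RNA exosome, which trims precursor ends, 6 rose and 0 fell (median 0.38), with Exosc7 up by 1.06. Of 18 other subunits and factors of RNA polymerases I and III 5 rose and 1 fell (median 0.14), with Polr3g up by 1.23. The 48 ribosomal protein genes had a median of 0.07, with 9 higher and 0 lower, and the largest called rise was 0.61 in Rpl12. Of 15 cell cycle genes 0 rose and 2 fell, Bub1 by 0.58 and Mki67, a proliferation marker, by 0.48, with a median of -0.20. Markers of other cells moved with the groups. Of 15 myeloid markers 6 fell and 0 rose (median -1.46), with list means of 5.0 to 9.46 on leukemic and 7.02 to 8.94 on normal pre-B arrays. Of 9 plasmacytoid dendritic cell markers 4 fell and 0 rose (median -1.05), of 12 T and NK cell markers 2 fell and 0 rose (median -0.14), and of 6 B-lineage markers 2 fell and 0 rose (median -0.56). Their part in the result was not tested.

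**Figure D3:**
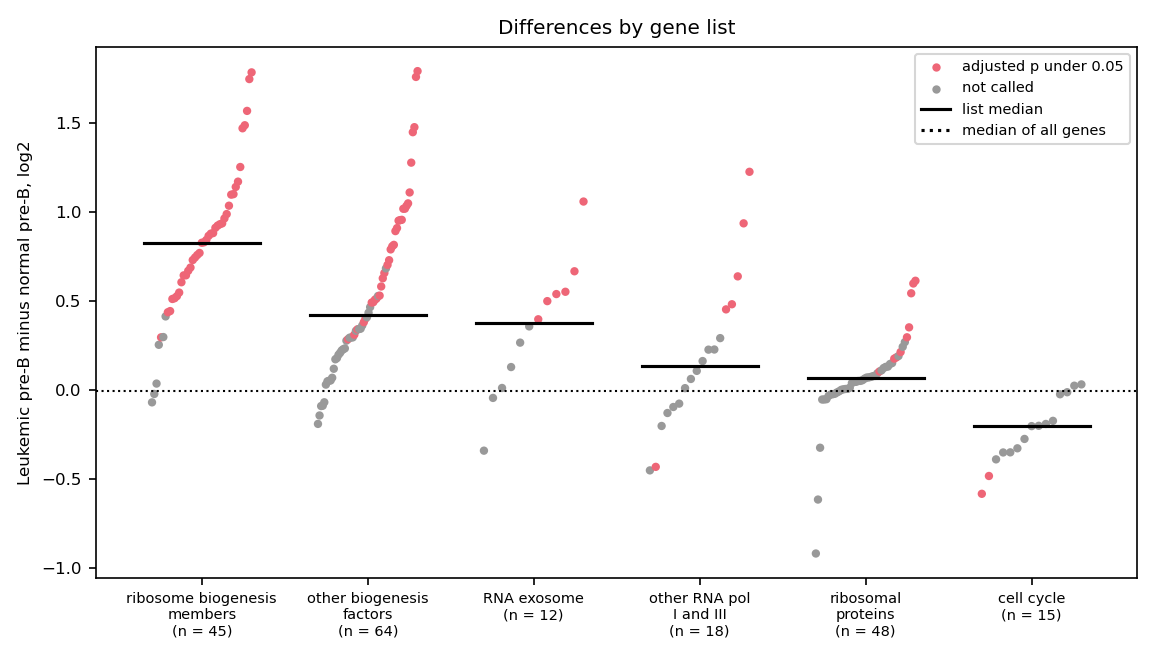
Difference of mean log2 intensity, leukemic minus normal pre-B, for every measured gene of 6 lists; each point is a gene, red marks an adjusted p under 0.05, solid bars are list medians and the dotted line is the median of all genes. The list medians fall from 0.83 for the 45 members through 0.42 and 0.38 for other biogenesis factors and the exosome to 0.07 for ribosomal proteins and -0.20 for cell cycle genes.

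Normal pre-B cells were also compared with pro-B cells, the stage before. Here 18 of the 45 members fell, 0 rose and 27 were not called. The 18 are 40% of the members, where 15.7% of all genes were called lower and 17.9% higher. The median difference of the members was -0.42 and that of all genes 0.11. Polr1b fell by 1.43, Rrp1b by 1.26, Tsr1 by 1.20, Gnl3 by 1.08 and Fbl by 0.98. Rrp1b was at 9.78, 10.24 and 10.76 (lowest, median, highest) in pro-B and at 8.32, 9.05 and 9.53 in pre-B, with all 8 pre-B arrays below every pro-B array (limma adjusted p = 3.46e-06). Tsr1 was at 8.32, 8.70 and 9.26 in pro-B and at 6.65, 7.63 and 8.32 in pre-B, where the ranges met at 8.32. Gnl3 at 10.58, 11.03 and 11.48 in pro-B did not overlap with pre-B.

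By role, 5 of 6 nucleolar phosphoproteins and growth regulators fell, 3 of 7 snoRNP proteins (Fbl, Nop58 and Gar1), 4 of 13 members of the 60S branch (Rrp1b, Nop2, Rrs1 and Noc2l), 4 of 11 of the small subunit processome (Nop14, Nol6, Wdr43 and Wdr75), 1 of 3 of late 40S maturation (Tsr1) and 1 of 5 of RNA polymerase I transcription (Polr1b). Npm1 fell by 0.28. Other probe sets did not all go the same way here. That of Wdr75, a dimmer one at a mean of 6.21, rose by 0.49, and that of Ddx27 by 0.33. Ubtf (0.03), Emg1 (0.01), Nop56 (-0.15), Pes1 (-0.21), Bop1 (-0.24) and Rrn3 (-0.18) were not called. This comparison and that of leukemic with normal pre-B cells share the 8 pre-B arrays. Of 64 further biogenesis factors 1 rose and 21 fell (median -0.21), and of 15 cell cycle genes 1 rose and 0 fell (median 0.32). The mean of these cell cycle genes was 11.21 in pre-B, 10.89 in pro-B and 10.98 in leukemic cells. The sorted pre-B arrays were therefore not low in cell cycle genes.

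The pro-B arrays did not form 1 level. The mean of the 45 members was 10.13, 9.84 and 10.11 on arrays 1, 5 and 3, and 9.53, 9.35 and 9.34 on arrays 2, 4 and 6. The arrays of the lower set were those with the higher T and NK cell markers, and their mean of 9 plasmacytoid dendritic cell markers was 11.39 to 11.62 against 10.24 to 10.58. Myc and the cell cycle genes split the same way. Myc was at 11.13, 10.57 and 11.07 on arrays 1, 5 and 3, and at 9.99, 9.49 and 9.56 on arrays 2, 4 and 6. The mean of 15 cell cycle genes was 11.55, 11.1 and 11.42 against 10.63, 10.28 and 10.35. From pro-B to pre-B cells 11 of 12 T and NK cell markers fell and 0 rose, 8 of 9 plasmacytoid dendritic cell markers fell and 1 rose, and 12 of 15 myeloid markers fell and 0 rose (median -1.33). With arrays 2, 4 and 6 left out, a choice made on the markers after seeing the data, 29 members fell, including all 18, and the median difference was -0.77. As these 3 arrays also have the lowest means of the members in the group, leaving them out raises the pro-B level by construction. Within run 1 alone 11 members fell, each of them among the 18. The part of other cells, of Myc or of the cell cycle in this comparison was not tested beyond these values.

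Leukemic pre-B cells differed less from pro-B cells. Of the 45 members 7 were higher, 0 lower and 38 not called. This share of 15.6% stood beside 8.11% of all genes called higher and 7.63% lower, and the median difference was 0.35 against 0.13 for all genes. The 7 were Wdr12 (0.66), Tsr1 (0.59), Mybbp1a (0.55), Polr1a (0.52), Ddx18 (0.51), Wdr43 (0.43) and Polr1c (0.39). For Polr1c 13 and for Polr1a 12 of 16 leukemic arrays lay above every pro-B array. Pes1 had as large a difference, 0.66, and was not called (limma adjusted p = 0.0615). Fbl (-0.04), Ubtf (-0.04) and Nop10 (0.01) had the smallest differences. Of the 16 leukemic arrays 7 had a mean of the members above every pro-B array.

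The count of 7 moved with the pro-B arrays that entered. Without arrays 2, 4 and 6 together 0 members were called and the median difference was 0.03, where the pro-B level is again raised by construction. Without array 2, 4 or 6 alone the count was 0, 2 and 1. Without pro-B array 1, leukemic array 122 or leukemic array 226 it was 11 each. With the accession run as a covariate it was 26, and within run 2 alone it was 1. Of the 7 themselves, 3 stayed called within run 1 alone and 3 with the probe sets of each gene averaged. Of the markers of other cells, 10 of 12 for T and NK cells and 9 of 9 for plasmacytoid dendritic cells were lower in leukemic than in pro-B cells, with medians of -2.65 and -3.76, and 0 were higher. So were 8 of 15 myeloid markers (median -3.01) and 3 of 6 plasma cell markers (median -1.13), with 0 higher, and the part of these cells was not tested.

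**Figure D4:**
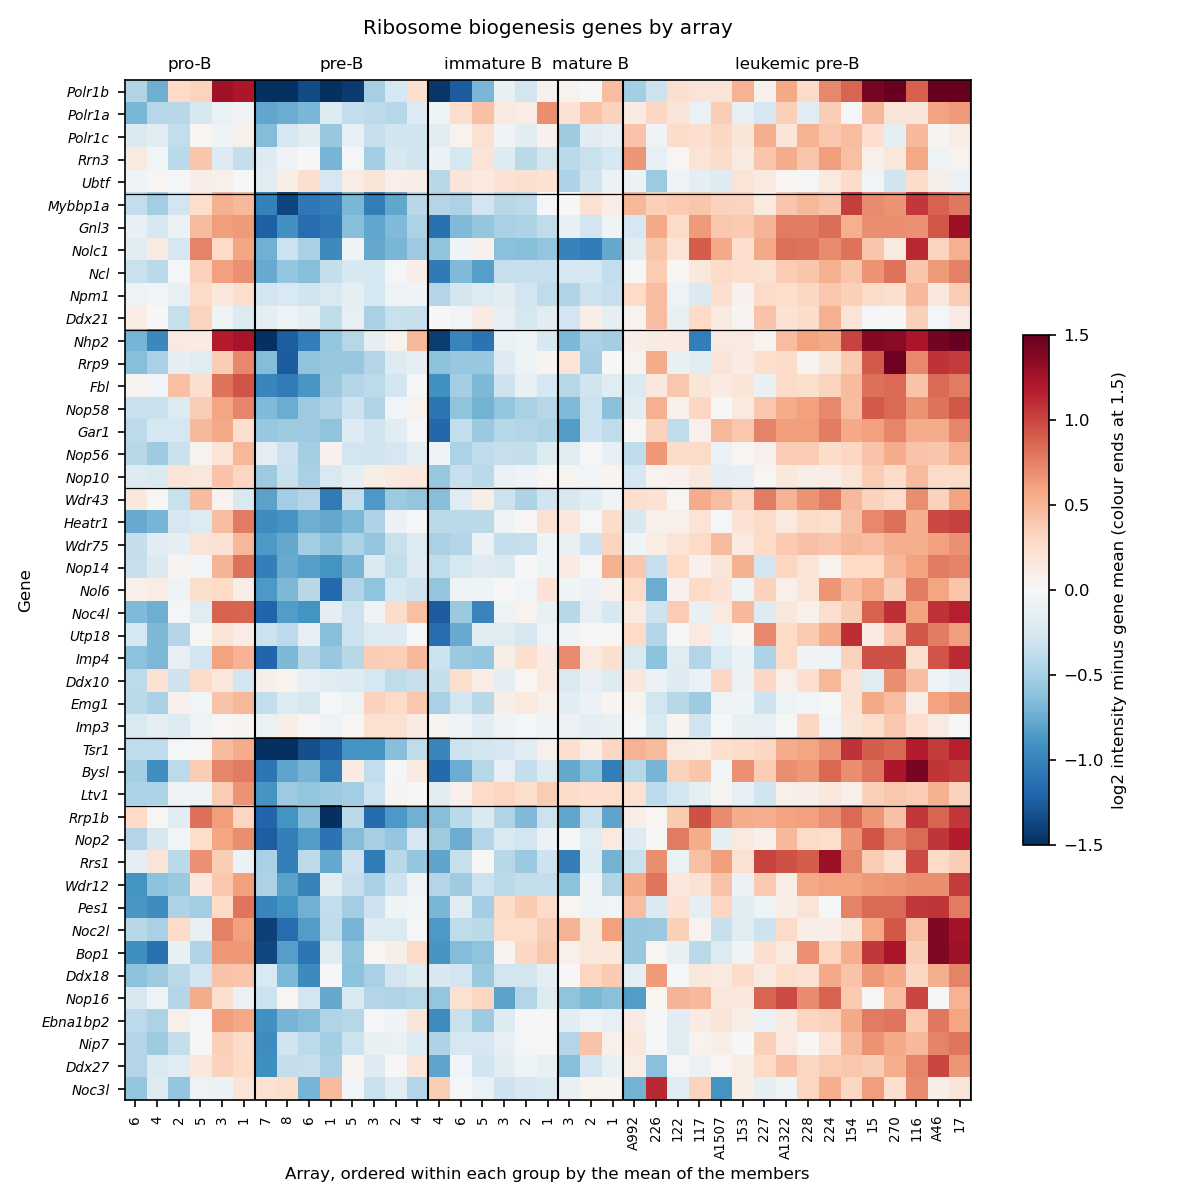
Log2 intensity of the 45 members (rows, grouped by role in the order of the plot of differences by role) on all 39 arrays (columns, ordered within each group by the mean of the members), each row minus its own mean; the colour scale ends at 1.5. The pre-B columns hold mostly blue and the leukemic columns mostly red, and pro-B columns 2, 4 and 6 are paler or bluer than columns 1, 3 and 5.

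After the pre-B stage the changes were smaller. From pre-B to immature B cells 7 members rose, 0 fell and 38 were not called. That is 15.6% of the members, where 10.9% of all genes were called higher and 8.7% lower, so that the share was near the background. Tsr1 rose by 0.83, Polr1a by 0.74, Ltv1 by 0.61, Mybbp1a by 0.59, Nol6 by 0.51, Rrp1b by 0.49 and Polr1c by 0.33. With the probe sets of each gene averaged, 3 of these 7 stayed called. The other probe sets of Polr1a, Mybbp1a, Rrp1b and Polr1c rose, by 0.20 to 0.89. That of Nol6, at a mean of 4.78, gave -0.04. Polr1a was at 6.52, 6.89 and 7.10 in pre-B and at 7.23, 7.50 and 7.99 in immature B cells, without overlap (limma adjusted p = 0.000601). None of the 7 snoRNP proteins was called, with a median of -0.08. The cell cycle genes went the other way: 15 of 15 fell, with a median of -1.48. Myeloid markers were higher in immature B cells, 7 of 15 rising and 0 falling, with list means of 7.96 to 10.12 against 7.02 to 8.94, and their part was not tested. Within run 1 and within run 2 alone 4 members were called, 3 of them in each run among the 7, and with the run as a covariate 13.

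From immature to mature B cells 0 of 45 members were called by limma, with 3 higher and 2 lower at an unadjusted p under 0.05, where 7.47% of all genes were higher and 9.05% lower at that threshold. Of all genes 1.96% were called higher and 3.29% lower. The differences ran from -0.53 to 0.80 with a median of 0.12, and the mature arrays were 3 and all in run 2. The lowest was that of Nolc1, whose other probe sets gave 0.33 and 0.07. Polr1b had the largest, with 6.55, 6.08 and 6.14 on mature arrays 1, 2 and 3 against 4.62 to 6.15 on the immature arrays (limma adjusted p = 0.468). Ddx18 was above every immature array on all 3 mature arrays, with a difference of 0.54 (limma adjusted p = 0.185). So were Tsr1, Mybbp1a, Gnl3, Nop14 and Utp18, by narrower gaps, and Nolc1 was below every immature array. How many of all genes separated in this way was not counted.

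Over the 4 normal stages together, 20 of 45 members differed by limma's F test at an adjusted p under 0.05, against 43.9% of all genes, so that the share of members was close to the background. The pre-B mean was the lowest of the 4 for 25 members, the mature mean for 10, the immature mean for 9 and the pro-B mean for 1. The pro-B mean was the highest for 26 and the mature mean for 14. With the leukemic cells added as a group, their mean was the highest for 38 of 45 members. How often other genes have these orders was not counted. These orders are of group means, and many neighbours did not differ beyond their spread: Npm1 was at 12.34 ± 0.10 (SD, n = 6) in immature and 12.26 ± 0.07 (SD, n = 3) in mature B cells, and Ncl at 11.01 ± 0.30 (SD, n = 8) in pre-B and 11.06 ± 0.06 (SD, n = 3) in mature B cells.

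Myc was read beside the members on each array. It was at 9.49, 10.28 and 11.13 (lowest, median, highest) in pro-B, at 6.77, 7.83 and 8.83 in pre-B, at 7.83, 8.99 and 9.53 in immature B cells, at 10.48, 9.57 and 10.33 on mature arrays 1, 2 and 3, and at 8.66, 10.82 and 11.51 in leukemic cells. Myc was 6.63-fold higher in leukemic than in normal pre-B cells (difference 2.73, SE 0.29, limma adjusted p = 2.31e-07), with 15 of 16 leukemic arrays above the highest normal one. Array A992, at 8.66, was the exception, and its mean of the members, 9.70, was the lowest of the leukemic arrays. From pro-B to pre-B cells Myc fell by 2.49 (limma adjusted p = 2.93e-06), and from pre-B to immature B cells it rose by 1.08 (limma adjusted p = 0.0203). Between leukemic and pro-B cells it was not called (0.24, limma adjusted p = 0.61), nor between mature and immature B cells (1.24, limma adjusted p = 0.103). Mycn, its relative, rose by 0.97 from pro-B to pre-B cells and was not called between leukemic and normal pre-B cells (-0.33, limma adjusted p = 0.454). Mycl, another relative, fell by 3.76 from pro-B to pre-B cells (limma adjusted p = 3.24e-08). It was 4.31 lower in leukemic than in pro-B cells (limma adjusted p = 7.15e-05) and was not called between leukemic and normal pre-B cells (-0.55, limma adjusted p = 0.613).

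**Figure D5:**
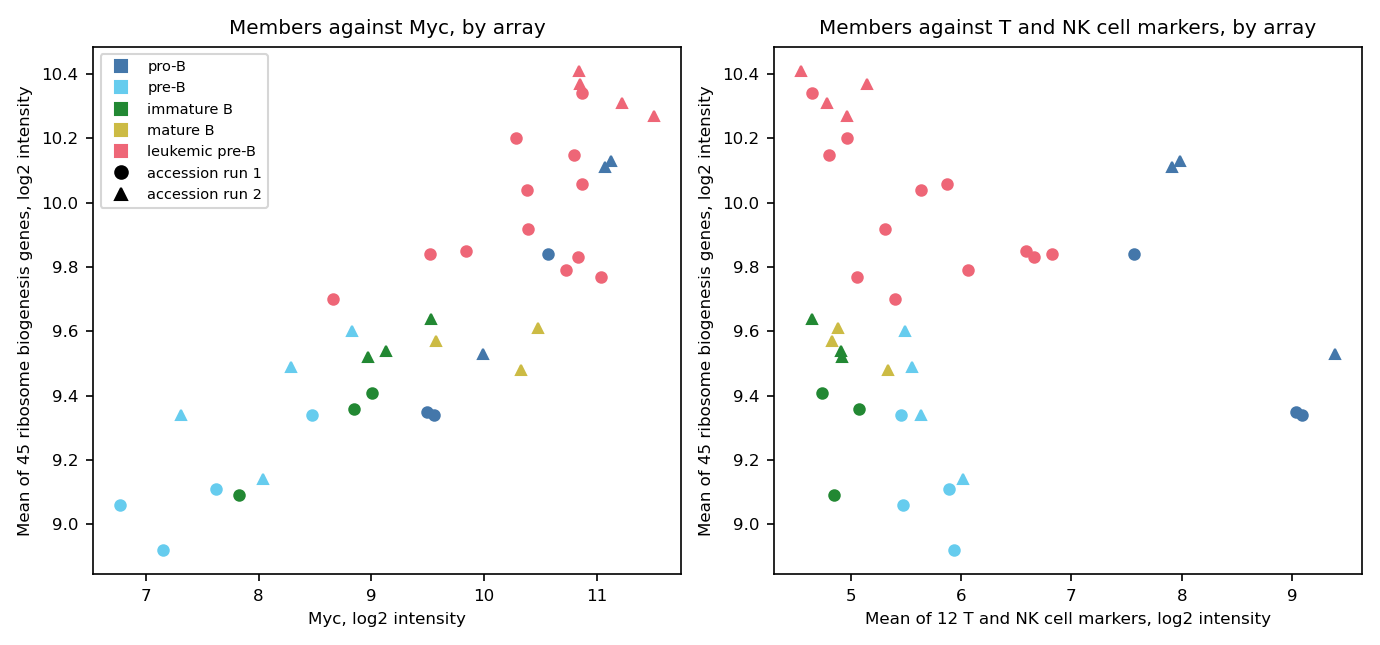
Mean log2 intensity of the 45 members on each array against Myc (left) and against the mean of 12 T and NK cell markers (right); colours are groups, circles and triangles accession runs 1 and 2. Pre-B arrays include the lowest values (Myc 6.77 to 8.83, members 8.92 to 9.60) and leukemic arrays the highest (members 9.70 to 10.41). The 3 pro-B arrays with T and NK cell markers above 9 have the lower means of the members and, at 9.49 to 9.99, the lower Myc values.

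Whether members followed Myc among the leukemias was asked over the 16 leukemic arrays. No r was pooled over the normal stages, which form separate clusters. With a two-sided permutation test and Benjamini-Hochberg adjustment over the 12392 other genes, 0 of 45 members and 0.0% of all genes were called as positively correlated. At an unadjusted p under 0.05, 15 members were positive and 0 negative, where 3.99% of all genes were positive. Without the 2 arrays farthest from the Myc median, A992 and A1507, 5 members were positive and 1, Ubtf (r = -0.55, permutation p = 0.0439), was negative, where 1.82% of all genes were positive and 3.42% negative. Pearson's r was above 0 for 40 of 45 members, with a median of 0.35, against 0.01 over all genes. The highest was Nop56, with r = 0.90 and Spearman's rho = 0.84 (permutation p = 1e-05, the smallest that 100000 resamples can give, adjusted p = 0.062; rho p = 9e-05, adjusted p = 0.219). On array A992 Nop56 was at 11.13, its lowest leukemic value, and on array 226, where Myc was at 11.04, it was at 12.17, its highest. Without A992 and A1507 r was 0.71, and within run 1 it was 0.91.

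Nop58 (r = 0.82, rho = 0.76) and Nop10 (r = 0.81, rho = 0.67), both also snoRNP proteins, followed, with permutation p of 0.0001 and 8e-05, an adjusted p of 0.0775 each and r of 0.65 and 0.63 without A992 and A1507. Noc3l, which was not called between the groups, had r = 0.77 and rho = 0.74 (permutation p = 0.00065, adjusted p = 0.134), and r was 0.50 without the 2 arrays (permutation p = 0.0703). Gnl3 had r = 0.71 and rho = 0.56 (permutation p = 0.00359, adjusted p = 0.24). Its r was 0.34 without the 2 arrays (permutation p = 0.229) and 0.80 within run 1, which holds both of them. At the other end were Rrn3 (r = -0.44), Polr1c (-0.34) and Ubtf (-0.14), none past an unadjusted p under 0.05 over the 16 arrays. All 3 belong to RNA polymerase I transcription, but that role was not of 1 sign. Its remaining members were positive, Polr1b with r = 0.55 (permutation p = 0.0254, adjusted p = 0.42) and Polr1a with r = 0.25. Of the 7 members that separated the groups without overlap, Gnl3 (0.71), Nop2 (0.66) and Wdr75 (0.54) passed an unadjusted p under 0.05. The rest, Tsr1 (0.35), Rrp1b (0.29), Mybbp1a (0.28) and Wdr43 (0.13), did not. Within run 1 alone, over 12 arrays, the median r of the members was 0.17 against 0.02 for all genes. As a description, the mean of the 45 members had r = 0.57 (rho = 0.47) with Myc and r = 0.81 (rho = 0.83) with Mki67 over the 16 leukemic arrays, and r = 0.43 and r = 0.67 over the 12 of run 1, and the difference between these was not tested. The 4 leukemic arrays of run 2 had the means of the members 10.27 to 10.41 and Myc at 10.84 to 11.51. Within the normal groups, the mean of the members had r = 0.998 with Myc over 6 pro-B arrays, 0.783 over 8 pre-B arrays and 0.97 over 6 immature B arrays. With Mki67 it had r = 0.96, 0.82 and 0.99. These groups are small, the pro-B arrays did not form 1 level, and no test was made within them.

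Promoters were read because Myc, paired with Max, is known to bind the E-box CACGTG, which reads the same on both strands. RefSeq promoter windows (GRCm38.p6, 250 bases before to 50 after a start site) were matched for 40 of the 45 measured members. CACGTG was present in at least 1 window of 9 of these 40 genes, or 22.5%, against 10.8% of 9887 genes on the array and 8.09% of all 27025 genes with a window. By window the shares were 18.4%, 9.11% and 7.15%. The 9 were Imp4, Nop2, Ltv1, Pes1, Mybbp1a, Tsr1, Utp18, Rrn3 and Wdr43. The sites are shown to place the motif in members whose values are given above, Rrn3 with 2 sites. Each line gives 30 bases 5′ to 3′ on the gene's strand with the E-box in capitals, and the site of Mybbp1a lay too near the end of its window to be shown with its flanks.
Imp4: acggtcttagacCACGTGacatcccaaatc
Nop2: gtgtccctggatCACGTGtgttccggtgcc
Ltv1: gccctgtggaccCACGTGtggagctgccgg
Pes1: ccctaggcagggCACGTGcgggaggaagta
Tsr1: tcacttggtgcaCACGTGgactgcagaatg
Utp18: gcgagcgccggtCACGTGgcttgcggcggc
Rrn3, distal: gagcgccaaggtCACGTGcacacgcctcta
Rrn3, proximal: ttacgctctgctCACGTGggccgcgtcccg
Wdr43: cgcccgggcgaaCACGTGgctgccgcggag

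In GRCm38.p6 these lie at chr1:34439696-34439725 (Imp4, plus strand), chr6:125131811-125131840 (Nop2, plus), chr10:13193092-13193121 (Ltv1, minus), chr11:3963965-3963994 (Pes1, plus), chr11:74898092-74898121 (Tsr1, plus), chr11:93885769-93885798 (Utp18, minus), chr16:13780472-13780501 and chr16:13780639-13780668 (Rrn3, plus) and chr17:71616220-71616249 (Wdr43, plus). Counted from the start site, the motif's first base is at -121 in Imp4, at -60 in Nop2 and at base 25 of the transcribed part in Tsr1. Of the 9 genes with the motif 8 were higher in leukemic than in normal pre-B cells, with a median difference of 0.87 and a range of 0.41 to 1.79. Of the 31 without it 26 were higher, with a median of 0.76. Over the leukemic arrays, r with Myc was 0.66 for Nop2, 0.41 for Imp4, 0.35 for Tsr1, 0.28 for Mybbp1a and 0.21 for Pes1. It was 0.15 for Ltv1, 0.13 for Wdr43, 0.08 for Utp18 and -0.44 for Rrn3, the lowest of the 45 members. Whether r differed between members with and without the motif was not tested. A match is a description of the letters in the window and no measurement of binding.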

How the data were processed

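The authors made the deposited values, an intensity for each probe set on each array, with RMA (version not given), as the submitters' processing notes record. RMA values are usually log2, but the deposited intensity values were linear (array medians 82.0 to 108.7) and were taken to log2 without an offset. Of 22690 probe sets, 64 controls, 691 with several gene symbols and 1555 with none were left out. Each of 12393 genes was represented by its probe set of highest mean across the 39 arrays. Comparisons used limma 3.58.1 in R 4.3.3 (lmFit, eBayes with an intensity trend), leukemic arrays with each normal group in separate fits and the normal stages in 1 fit of 23 arrays, with Benjamini-Hochberg adjustment over all genes. Correlations with Myc used 100000 permutations. Programs were checked on simulated data. The alternatives tried were averaging a gene's probe sets, quantile normalization, dropping the dimmest 40% of genes, dropping probe sets that match several transcripts, the accession run as a covariate, each run alone, all arrays in 1 fit, the replicate number as a block and each array left out.

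The members and lists were chosen with earlier results of these data known. Values by array were given for a preset list of genes, for the members with the largest called differences and for those with the smallest differences; context lists were named by their largest called and uncalled genes. Replicate numbers were not taken to pair the normal samples and served no main comparison. No gene lengths or read depths apply to arrays, and levels were not compared between genes.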

Additional observations from a re-analysis of the deposited data

Results flagged for a closer look

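Within groups of 4 to 10 arrays, 141 sets of values were checked for a single array far from the others, and 6 stood out; chance alone gives about 1 in 20. Immature B array 4 was the lowest in 4 of them. Gar1 was at 9.90 there and at 10.52 to 10.71 on the other immature arrays, Ubtf at 11.39 against 11.95 to 12.05, Ddx27 at 8.79 against 9.28 to 9.54 and Nol6 at 7.88 against 8.40 to 8.68. That array also had the lowest mean of the 45 members in its group, 9.09. Ddx18 was at 9.82 on immature B array 5 against 10.09 to 10.24 on the others, and Rrp9 at 5.56 on pre-B array 8 against 6.16 to 6.67.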

How the results depend on the processing

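The count of members higher in leukemic than in normal pre-B cells, 39, was 33 of 40 measured without probe sets that match several transcripts and 40 with the run in the model, and 35 to 39 with 1 array left out. For leukemic against pro-B cells the count of 7 was 3 without such probe sets, 26 with the run as a covariate, 1 within run 2, 14 with all 39 arrays in 1 fit, 0 without pro-B arrays 2, 4 and 6, and 0 to 11 with 1 array left out. From pro-B to pre-B cells 1 member rose after quantile normalization and 1 with the run as a covariate, while the 18 that fell became 11 within run 1, 29 without pro-B arrays 2, 4 and 6, and 14 to 24 with 1 array left out. From pre-B to immature B cells the 7 became 4 without probe sets that match several transcripts, 13 with the run as a covariate and 4 within each run. From immature to mature B cells 1 member fell with the run as a covariate and 1 within run 2, and 0 to 1 with 1 array left out. With the dimmest 40% of genes left out, fewer genes were tested and 3 members were called as correlated with Myc, and 0 to 2 with 1 array left out; with 1000000 resamples, an alternative added after seeing the data like that without pro-B arrays 2, 4 and 6, 0 were. Myc itself has no probe set left without those that match several transcripts, so that alternative was not run. Apart from changes in which genes or arrays entered, the cause of these moves was not tested. Of 2275 alternatives for single members 2187 kept their side of the threshold, 35 of them with the other sign but not called either way, 64 lost the call, 24 gained one and none of the called members changed sign. Correlations of deviations between arrays of the same number ran from -0.58 to 0.48 for pro-B and pre-B, with 3 of 6 pairs over 0.1. For immature B and pre-B 4 of 6 pairs were over 0.1, and for mature and immature B 2 of 3. The deviations were not adjusted for the accession run, and the pair at -0.58 came from different runs. This check therefore cannot decide whether the numbers pair samples. With the replicate number as a block 16 members fell from pro-B to pre-B cells, 7 rose from pre-B to immature and 0 changed from immature to mature B cells, and over all genes the calls from pro-B to pre-B went from 2214 higher and 1948 lower to 1357 and 1700.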
